A study of Mus musculus with 10 samples.

Results

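The 10 genes Mertk, Axl, Tyro3, Gas6, Pros1, Mfge8, Timd4, Stab1, Cd36 and Lrp1, which encode receptors and bridging proteins for the uptake of dying cells, were followed in RNA of mouse forelimb buds with and without a conditional deletion of Cxxc1. They were taken by symbol from the 47729 genes of the deposited count table, and all 10 were among the 20562 genes that passed the filter on low counts. There were 10 libraries of forelimb buds from embryos of embryonic day 11.5 to 12, 5 controls and 5 knockouts, from 4 litters named A to D. Knockouts 1 to 5 carried Prx1Cre, a Cre recombinase driven by a Prrx1 enhancer that is active in limb bud mesenchyme, with floxed Cxxc1 on both alleles (Prx1Cre_+-Cxxc1fl_fl). Control 1 also carried Prx1Cre but only 1 floxed allele (Prx1Cre_+-Cxxc1fl_wt). Controls 2 and 4 were labelled CreWT-Cxxc1fl_WT, control 3 CreWT-Cxxc1fl_fl and control 5 Prx1Cre?-Cxxc1fl_fl, so the Cre status of control 5 is uncertain. Every embryo of both groups therefore carried at least 1 floxed allele. Somite stage ran from 49 to 51. A control and a knockout came from each of litters B, C and D, and the other 4 embryos, 2 per group, from litter A.

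Total counts ran from 33274911 to 49880815 per library. Cxxc1 itself was at 96.7 ± 6.88 CPM (read counts scaled to the depth of each library) in the control group, against 75.2 ± 1.23 CPM after deletion (SD, n = 5 each), and the groups did not overlap. The count covers the whole gene and not only the deleted part, and the buds also hold cells in which Prx1Cre is not active. The part of either in the remaining Cxxc1 RNA, and how complete the deletion was, was not tested. Xist stayed at 5.48 CPM or less in 8 libraries but reached 4114 CPM in control 1 and 2289.5 in knockout 3. Markers of limb mesenchyme, such as Prrx1 and Hoxd13, were present in all libraries, with 10 markers summing to between 1398 and 2429 CPM.

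A cell that dies by apoptosis exposes the lipid phosphatidylserine on its surface, and neighbouring cells or macrophages recognise it and engulf the corpse, a process called efferocytosis. Some receptors, such as TIM-4 (Timd4) and stabilin-1 (Stab1), bind the lipid directly. Others need a soluble bridge: GAS6 and protein S (Pros1) join phosphatidylserine to the receptor tyrosine kinases TYRO3, AXL and MERTK (the TAM family), and MFG-E8 joins it to integrins. CD36 and LRP1 are scavenger and endocytic receptors that take part in uptake with partners such as thrombospondin and calreticulin. In the embryonic limb, macrophages clear the cells that die during patterning.

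CXXC1, the protein removed here, recognises CpG that carry no methyl group and is a subunit of the SET1 histone methyltransferase complexes. The 250 bases upstream of the start of the RefSeq gene were therefore examined for CpG, searched as the letters CG, which read the same on both strands. All 10 genes matched the RefSeq table (GRCm38.p6). The windows were read for a receptor gene that was lower in the knockout (Mertk, plus strand, chr2:128698665-128698914), for the ligand gene that rose most (Gas6, minus strand, chr8:13494536-13494785) and for the member with the largest rise (Cd36, minus strand, chr5:17835897-17836146). Each is written 5′ to 3′ in the direction of transcription, with CG in capitals.
Mertk: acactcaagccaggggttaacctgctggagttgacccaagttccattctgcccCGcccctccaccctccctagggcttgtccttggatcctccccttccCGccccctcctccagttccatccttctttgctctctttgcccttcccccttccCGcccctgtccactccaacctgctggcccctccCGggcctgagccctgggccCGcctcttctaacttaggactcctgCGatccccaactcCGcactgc
Gas6: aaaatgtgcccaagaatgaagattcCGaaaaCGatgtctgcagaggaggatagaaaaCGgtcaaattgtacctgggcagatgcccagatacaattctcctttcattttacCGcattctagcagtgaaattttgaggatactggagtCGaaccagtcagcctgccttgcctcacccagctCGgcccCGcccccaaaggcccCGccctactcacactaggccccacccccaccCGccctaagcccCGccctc
Cd36: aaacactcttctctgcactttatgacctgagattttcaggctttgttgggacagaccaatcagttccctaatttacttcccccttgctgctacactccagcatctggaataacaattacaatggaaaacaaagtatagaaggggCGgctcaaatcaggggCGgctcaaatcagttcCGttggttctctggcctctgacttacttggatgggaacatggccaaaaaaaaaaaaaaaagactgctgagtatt
The Mertk window held 7 CG, the Gas6 window 10 and the Cd36 window 3. Among 32841 windows of this length before RefSeq genes, the median was 6, and 92.1% held at least 1. As many as in Mertk or more were found in 46.3% of windows, as many as in Gas6 or more in 37.8% and as many as in Cd36 or more in 71%. The window of Tyro3 held 24 and that of Pros1 15, while those of Axl and Stab1 held 5 each, that of Timd4 4, that of Mfge8 12 and that of Lrp1 13. Members that were lower in the knockout thus had 7 and 24, those that were higher had 3 to 15, and the remaining pair had 5 and 13, so the ranges overlapped. A CG in these letters says nothing about methylation or binding in the bud. Gene positions given further on are those of GENCODE, whose starts can differ from those of RefSeq. The windows of Cd36 and Tyro3 lie inside the GENCODE gene, so their CG counts are not those before the GENCODE start.

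The design asks which genes change in the bud when Cxxc1 is deleted in its mesenchyme. In the knockout, 2 TAM receptor genes, Mertk and Tyro3, fell, while both TAM ligand genes, Gas6 and Pros1, rose. The bridge gene Mfge8 and the receptor genes Timd4, Stab1 and Cd36 rose as well. Axl and Lrp1 did not pass the test. In the edgeR quasi-likelihood test, adjusted by Benjamini-Hochberg over all genes, 6 of the 10 members passed as higher and 2 as lower, where 18.1% of the 20562 genes tested were called higher and 17.1% lower, 35.2% in all. The groups did not overlap in 8 members, against 25.3% of all genes tested. The median log2 fold change of the 10 was 0.70, and that of all genes tested was -0.001. In bulk tissue, fewer cells of a type and less RNA per cell cannot be told apart, and this holds for every difference given here.

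**Figure D1:**
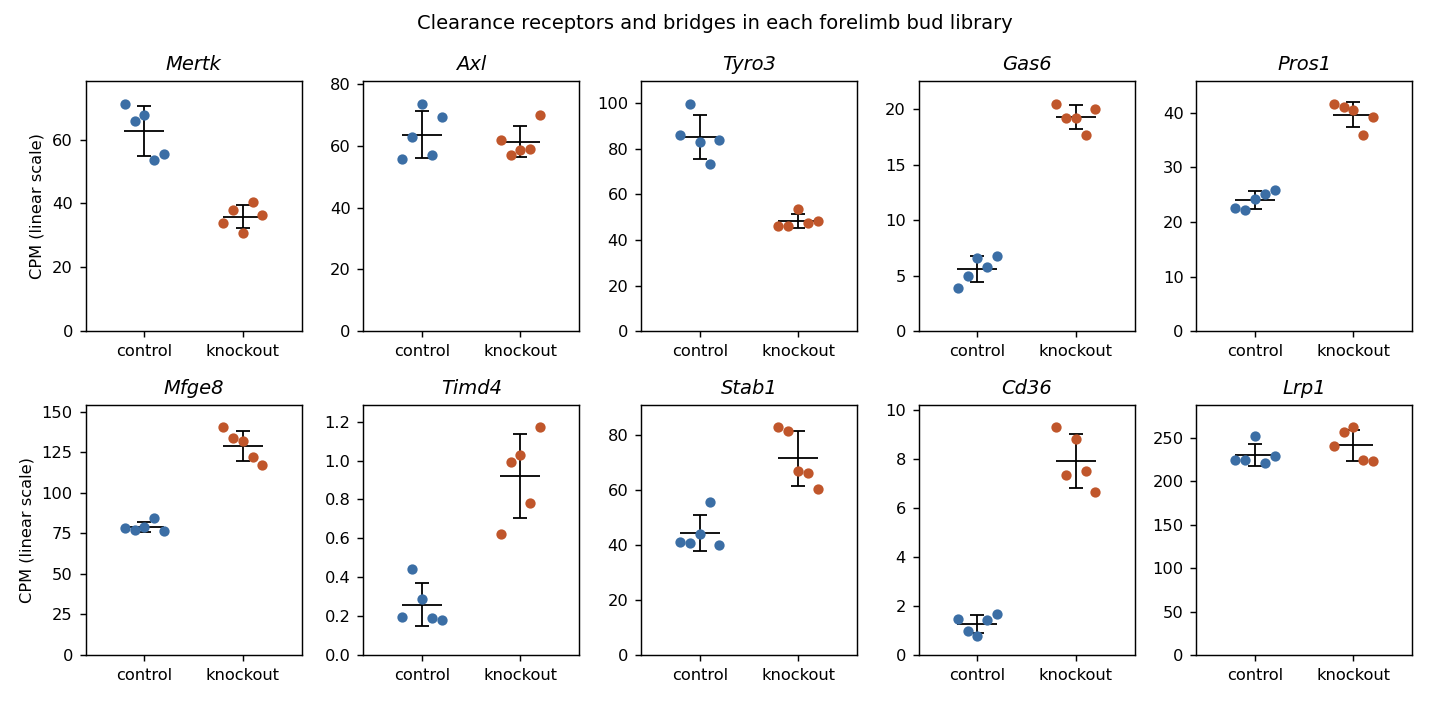
CPM of the TMM-scaled library (linear axis from 0, scaled for each gene) of the 10 genes in the 5 control and 5 knockout libraries, 1 point per library, with the mean and SD as bars. Mertk and Tyro3 lie lower in every knockout than in every control, 6 genes lie higher in every knockout, and the groups overlap for Axl and Lrp1.

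Mertk (ENSMUSG00000014361, chromosome 2, 128698956 to 128802894, plus strand, GRCm38) encodes the TAM receptor best known for corpse uptake by macrophages and retinal pigment epithelium. Controls 1 to 5 held 71.2, 65.9, 67.6, 53.6 and 55.4 CPM, and knockouts 1 to 5 held 33.9, 37.9, 30.8, 40.5 and 36.4 CPM. Every knockout lay below every control, and within the controls litters C and D were lower than litters A and B. The means were 62.7 ± 7.79 and 35.9 ± 3.70 CPM (SD, n = 5 each), and the gene fell by 0.80 on the log2 scale (SE 0.09, edgeR adjusted p = 4.44e-05).

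Tyro3 (ENSMUSG00000027298, chromosome 2, 119797733 to 119818104, plus strand), a TAM receptor that is prominent in the nervous system, fell by a similar amount. The 5 controls, in order of number, held 86.0, 99.7, 83.0, 73.4 and 83.7 CPM, and the knockouts 46.3, 46.0, 53.5, 47.6 and 48.1 CPM. The lowest control was above the highest knockout, which was knockout 3. The means were 85.1 ± 9.46 and 48.3 ± 3.02 CPM, and the gene fell by 0.82 on the log2 scale (SE 0.07, edgeR adjusted p = 6.56e-06).

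Axl (ENSMUSG00000002602, chromosome 7, 25757273 to 25788705, minus strand) encodes the TAM receptor that is bound by GAS6 but not by protein S. Its level in controls 1 to 5 was 55.9, 62.8, 73.7, 57.0 and 69.3 CPM, and in knockouts 62.1, 57.2, 58.7, 59.2 and 70.1 CPM. The groups overlapped over nearly their whole ranges, with means of 63.7 ± 7.72 and 61.5 ± 5.14 CPM (log2 fold change -0.05, SE 0.08, edgeR adjusted p = 0.68).

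Gas6 (ENSMUSG00000031451, chromosome 8, 13465374 to 13494490, minus strand), the ligand of all TAM receptors, rose most among the soluble members. There were 3.90, 4.94, 6.56, 5.80 and 6.75 CPM in controls 1 to 5, and in knockouts 20.5, 19.2, 19.2, 17.7 and 20 CPM. Every knockout held more than any control, and the knockouts lay close together. The means were 5.59 ± 1.18 and 19.3 ± 1.07 CPM, a ratio of 3.46 (log2 fold change 1.79, SE 0.13, edgeR adjusted p = 1.19e-06). Of all genes tested, 1.72% had a larger rise.

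Pros1 (ENSMUSG00000022912, chromosome 16, 62854307 to 62929346, plus strand), which encodes the anticoagulant protein S and the second TAM ligand, rose less. Controls 1 to 5 held 22.6, 22.2, 24.2, 25.1 and 25.9 CPM, and knockouts 41.6, 41.0, 40.5, 35.9 and 39.1 CPM. Knockout 4 was the lowest of its group and still above every control. The means were 24 ± 1.61 and 39.6 ± 2.29 CPM (log2 fold change 0.72, SE 0.06, edgeR adjusted p = 4.08e-06).

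Mfge8 (ENSMUSG00000030605, chromosome 7, 79133768 to 79149060, minus strand), the bridge from phosphatidylserine to integrins, had the highest mean level per length of the 10 genes in both groups. Controls 1 to 5 held 78.2, 77.0, 78.8, 84.3 and 76.3 CPM, and knockouts 140.4, 134, 132, 122 and 117 CPM. The groups were well apart, and the spread was larger in the knockouts. The means were 78.9 ± 3.15 and 129 ± 9.32 CPM (log2 fold change 0.71, SE 0.05, edgeR adjusted p = 1.28e-06).

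**Figure D2:**
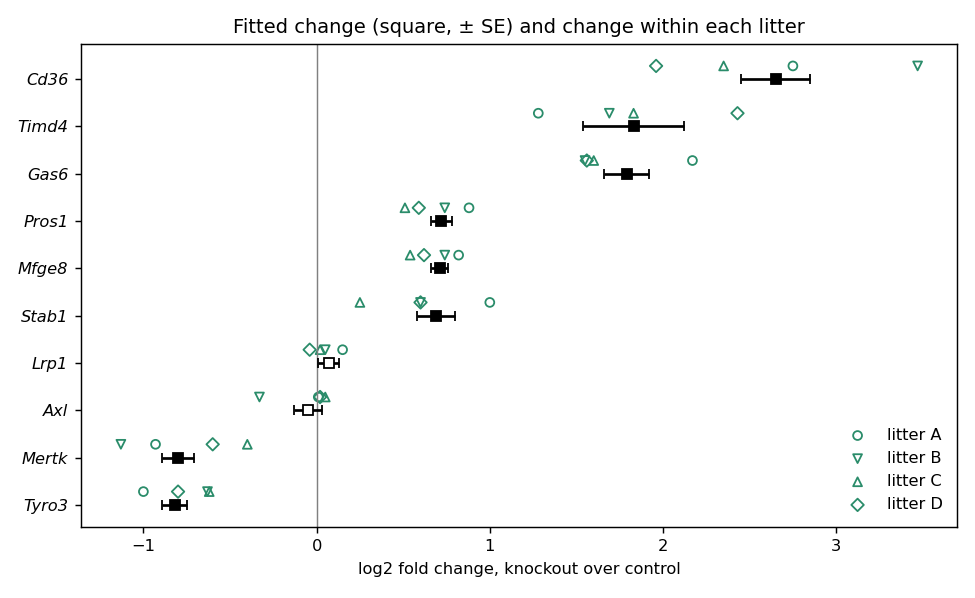
Log2 fold change of knockout over control for each gene, as fitted over all 10 libraries (squares with SE bars, open where the test was not passed) and as the difference in mean log2 CPM within each of the 4 litters (open green symbols). Tyro3 and Mertk lie left of 0 in all 4 litters, the 6 genes from Stab1 to Cd36 lie right of 0 in all 4, and Axl and Lrp1 straddle 0.

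Timd4 (ENSMUSG00000055546, chromosome 11, 46810800 to 46844332, plus strand), a phosphatidylserine receptor of resident macrophages, was the scarcest member. Controls 1 to 5 held 9, 19, 14, 9 and 8 counts, and knockouts 25, 52, 34, 34 and 56 counts. These were 0.197, 0.441, 0.286, 0.188 and 0.180 CPM in controls and 0.623, 0.993, 1.03, 0.783 and 1.17 CPM in knockouts. The lowest knockout was above the highest control, although single values rest on few counts. The means were 0.258 ± 0.111 and 0.918 ± 0.215 CPM (log2 fold change 1.83, SE 0.29, edgeR adjusted p = 0.000414).

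Stab1 (ENSMUSG00000042286, chromosome 14, 31139013 to 31168641, minus strand), a receptor of macrophages and of some endothelia, rose as well. Controls 1 to 5 held 41.2, 40.9, 44.2, 55.7 and 39.9 CPM, and knockouts 82.8, 81.6, 66.9, 66.2 and 60.3 CPM. The 2 highest knockouts were those of litter A, and control 4 stood above the other controls. The means were 44.4 ± 6.52 and 71.5 ± 10 CPM (log2 fold change 0.69, SE 0.11, edgeR adjusted p = 0.000454). Without litter A the log2 fold change was 0.47 (SE 0.12, edgeR adjusted p = 0.031).

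Cd36 (ENSMUSG00000002944, chromosome 5, 17781690 to 17888801, minus strand), a scavenger receptor for lipids and thrombospondin, showed the largest change of the 10. Across controls 1 to 5 it was at 1.45, 0.975, 0.756, 1.44 and 1.69 CPM, and across knockouts at 9.30, 7.35, 8.81, 7.51 and 6.67 CPM. The highest control was far below the lowest knockout. The means were 1.26 ± 0.382 and 7.93 ± 1.09 CPM, a ratio of 6.29 (log2 fold change 2.65, SE 0.20, edgeR adjusted p = 1.6e-06), and 0.554% of all genes tested had a larger rise.

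Lrp1 (ENSMUSG00000040249, chromosome 10, 127538161 to 127621148, minus strand), a large endocytic receptor that many cell types express, held 225, 224, 252, 221 and 229 CPM in controls 1 to 5 and 240.4, 257, 262, 224 and 223 CPM in knockouts. The groups overlapped, with means of 230.2 ± 12.7 and 241 ± 18 CPM (log2 fold change 0.07, SE 0.06, edgeR adjusted p = 0.402).

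The litters showed the same directions. On log2 CPM, the change within a litter ran from -1.13 to -0.40 for Mertk, from -1.0 to -0.62 for Tyro3, from 1.55 to 2.17 for Gas6 and from 0.51 to 0.88 for Pros1. It ran from 0.54 to 0.82 for Mfge8, from 1.28 to 2.43 for Timd4, from 0.25 to 1.00 for Stab1 and from 1.96 to 3.47 for Cd36. Litter A held the largest rise of Gas6, Pros1, Mfge8 and Stab1 and the largest fall of Tyro3, and litter B held the largest rise of Cd36 and the largest fall of Mertk. Axl changed by -0.33 in litter B and by 0.01 to 0.05 in the other litters, and Lrp1 by -0.04 to 0.15.

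Levels of different genes were compared as CPM per kb of exon. The length is that of all annotated exons of a gene joined, so a level is too low where the expressed transcripts are shorter. In controls, Mfge8, Mertk, Tyro3, Lrp1 and Axl followed each other from 16.8 to 12.7 CPM per kb, and the ranges of neighbours in this order overlapped. Pros1 (5.87), Stab1 (4.31), Gas6 (2.19), Cd36 (0.351) and Timd4 (0.119) followed, each range apart from the next. In knockouts, Mfge8 (27.5) stood above all others, and Lrp1 (13.6) and Axl (12.2) overlapped. Pros1 (9.70), Mertk (8.28), Tyro3 (7.79), Gas6 (7.59) and Stab1 (6.95) formed a run in which each overlapped the next, followed at a distance by Cd36 (2.21) and Timd4 (0.423). Gas6, which in controls had been far below Mertk and Tyro3, lay beside them in knockouts.

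**Figure D3:**
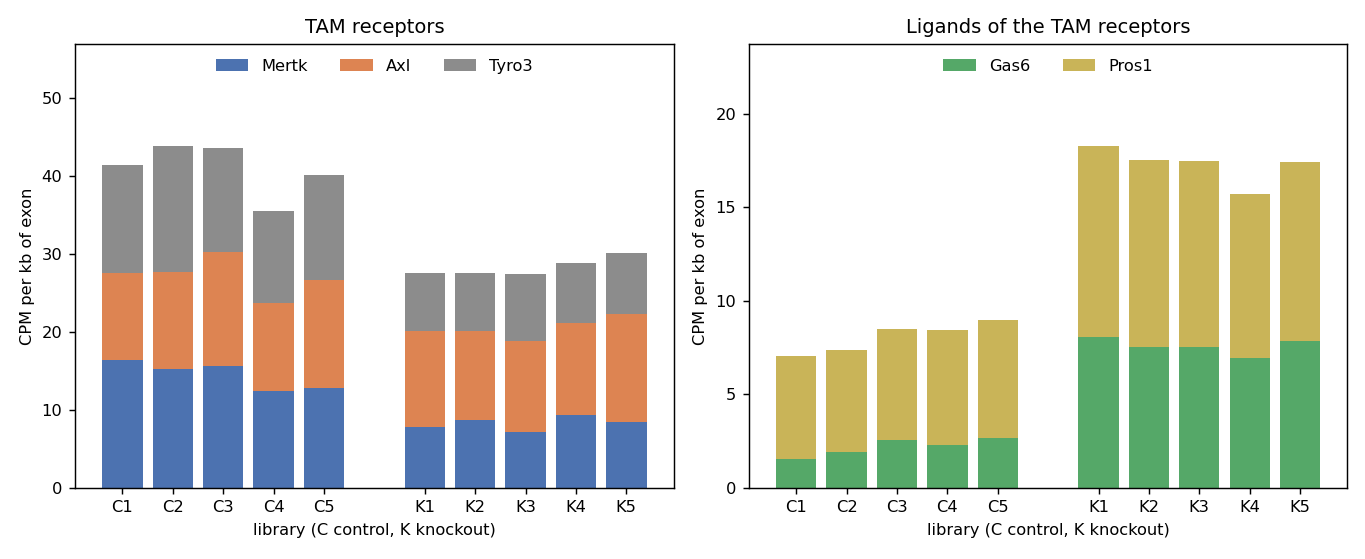
CPM per kb of exon of the TAM receptors Mertk, Axl and Tyro3 (left, stacked) and of their ligands Gas6 and Pros1 (right, stacked) in each control (C) and knockout (K) library. The summed receptors are lower in every knockout, with Axl between 11.1 and 14.6 CPM per kb throughout, and the summed ligands are higher in every knockout.

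The summed level of the 3 TAM receptors was 41.4, 43.8, 43.6, 35.5 and 40.1 CPM per kb in controls 1 to 5 and 27.6, 27.5, 27.4, 28.8 and 30.1 CPM per kb in knockouts. Axl made up 26.8% to 34.4% of that sum in controls and 40.9% to 46.3% in knockouts, without overlap. The shares of Mertk (31.9% to 39.7% and 25.9% to 32.4%) and of Tyro3 (30.7% to 36.8% and 25.8% to 31.5%) overlapped between the groups. The 2 ligands together had 7.06 to 8.99 CPM per kb in controls and 15.7 to 18.2 CPM per kb in knockouts, and the share of Gas6 in this sum was 21.7% to 30.3% and 43.0% to 45.0%. The ratio of ligand to receptor RNA per kb was 0.199 ± 0.0311 in controls and 0.612 ± 0.0478 in knockouts (SD, n = 5 each). These ratios follow from the changes of the single genes and were not tested on their own.

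Markers of macrophages, the main engulfing cells of the embryo, rose, as did 6 of the 10 members, while Mertk and Tyro3 fell. Of 20 markers, 18 passed as higher, 0 as lower and 2 (Itgam and Cd163) did not pass. Over all genes tested, 18.1% were called higher and 17.1% lower. The summed level of the markers was 85.7 to 118 CPM in controls and 296 to 343 CPM in knockouts, and no marker was at 0 in all libraries. Csf1r rose from 12.8 ± 1.63 to 49.7 ± 2.22 CPM and Mrc1 from 12.1 ± 1.83 to 34.8 ± 3.25 CPM (SD, n = 5 each), the 2 most abundant of them. The count of Itgam is uncertain, because another annotated gene shares 68.7% of its exon bases on the same strand. Cd163 was scarce, with means of 0.315 CPM in controls and 0.290 CPM in knockouts. Per 1000 CPM of summed macrophage markers, Gas6 had 41.3 to 65.3 CPM in the controls against 58.2 to 69.3 CPM in the knockouts, and Timd4 had 1.52 to 5.15 and 2.1 to 3.4 CPM, so for both the groups overlapped. Cd36 was at 7.52 to 15.7 and 19.4 to 31.4 CPM on this scale and stayed higher in every knockout. Pros1, Mfge8 and Stab1 were lower in every knockout on this scale, at 0.520, 0.514 and 0.506 times the control mean. Mertk (0.179), Tyro3 (0.177), Axl (0.303) and Lrp1 (0.330) lay lower still. The marker sum itself was 3.16 times the control mean, so a gene unchanged in CPM lies lower on this scale. Axl and Lrp1 did not pass the test in CPM. The part of the macrophage markers in the members' changes was not tested.

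**Figure D4:**
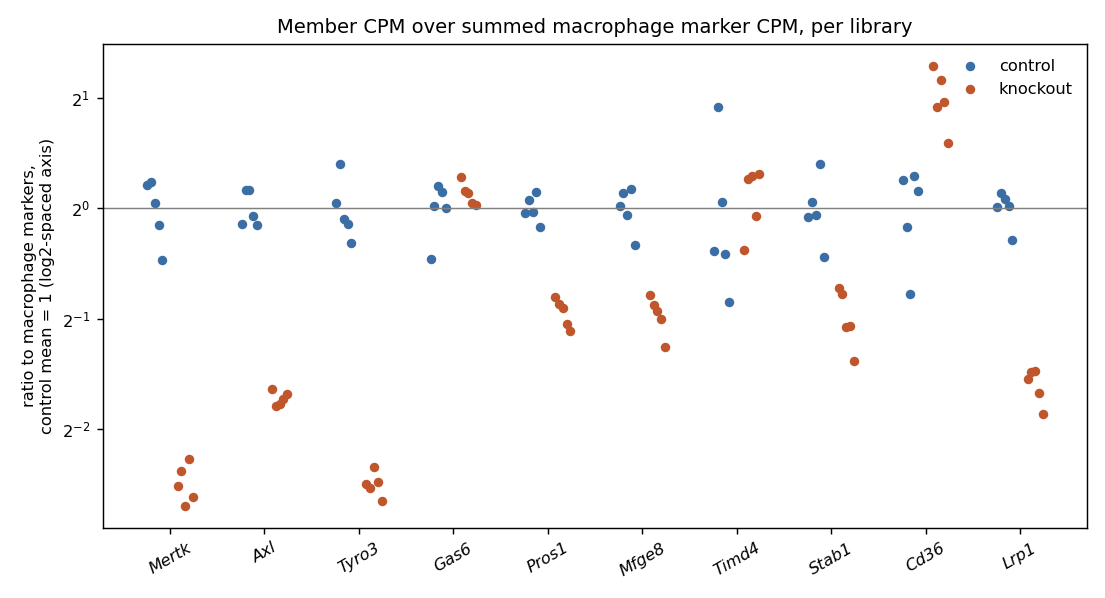
CPM of each gene divided by the summed CPM of 20 macrophage markers in the same library, with the control mean of each gene set to 1 (log2-spaced axis, 1 point per library). Knockouts overlap controls for Gas6 and Timd4, lie above them for Cd36 and below them for the other 7 genes.

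Markers of other cell types moved too. The summed level of 10 limb mesenchyme markers was 2208 to 2429 CPM in controls and 1398 to 1737 CPM in knockouts, 0.654 times the control mean, with 4 of 10 passing as lower and 0 as higher and a median log2 fold change of -0.21. The 4 were Prrx1, Prrx2, Tbx5 and Pdgfra, while Msx1 (0.27) and Msx2 (0.22) were among the 6 that did not pass. Most of the fall of the sum lay in Pdgfra (493 to 135 CPM) and Prrx1 (578 to 297 CPM). The change of a ratio to this sum therefore rests largely on these genes and is no measure of the amount of mesenchyme. Per 1000 CPM of these markers, Mertk had 22 to 31.1 CPM in the controls against 19.5 to 27.8 CPM in the knockouts, and Tyro3 had 30.2 to 44.2 and 26.7 to 38.2 CPM, and in both cases the groups overlapped. The other 8 members lay higher in every knockout on this scale, from 1.48 times the control mean for Axl and 1.61 for Lrp1 to 9.57 for Cd36. Because the marker sum fell, a gene unchanged in CPM lies higher on this scale, and Axl and Lrp1 did not pass the test in CPM. The summed endothelial markers were at 275 to 322 and 343 to 396 CPM, with 8 of 10 passing as higher but 1 of 10 without litter A. Erythroid markers summed to 256 to 324 and 335 to 694 CPM, with 6 of 8 passing as higher and 3 of 8 without litter A. Limb ectoderm markers summed to 300.3 to 496 and 538 to 643 CPM, with 6 of 10 passing as higher. Without litter A, 4 of these 10 passed as higher. Over all genes, that setting with fewer libraries called 2002 of 20566 as higher, against 3719 of 20562 with litter A. Of 7 muscle precursor markers 5 passed as higher. The sum of all 7 was 96.2 to 121 CPM in controls and 111 to 204 CPM in knockouts, so the groups overlapped. Summed markers of pericytes and smooth muscle (196 to 246 and 175 to 207 CPM), Schwann precursors and melanoblasts (54.7 to 61.4 and 54.0 to 62.0 CPM) and platelets (20.2 to 27.9 and 23.1 to 28.3 CPM) overlapped between the groups. In the Schwann list 1 of 7 markers passed as higher and 2 as lower, in the pericyte list 1 of 7 tested as higher and 3 as lower, and in the platelet list 0 of 6 passed. Of all genes tested, 35.2% were called in either direction. The shares called in the limb mesenchyme and Schwann lists lay near that, so these counts are no result about those lists. The markers with the highest mean CPM were as follows. Prrx1 fell by 0.96 on the log2 scale, while Hoxd13 (-0.10) did not pass. Cdh5 of endothelium rose by 0.31 and Pecam1 (0.14) did not pass. In red cells Hba-a1, whose reads may be split with a near-identical copy, rose by 0.87 and Slc4a1 by 0.83. Krt5 of ectoderm rose by 0.86, Krt14 (0.11) did not pass, and the muscle precursor genes Met and Myod1 rose by 0.80 and 0.79. Pdgfrb fell by 0.25, and Acta2 (-0.14), Erbb3 (0.03), Pf4 (0.24) and Itga2b (0.05) did not pass. The part of these cell types in the members' changes was not tested.

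The other genes of the clearance pathway were read by the step in which they act. Of 18 other clearance receptors, 16 were tested, and 10 passed as higher, 1 as lower and 5 did not pass (median log2 fold change 0.55). Without litter A, 7 of the 16 passed as higher and 0 as lower. The shares over all genes tested were 18.1% higher and 17.1% lower. Without litter A, 2002 of 20566 genes were called higher and 2021 lower. Trem2, a lipid receptor of macrophages, rose from 0.948 ± 0.113 to 5.92 ± 0.680 CPM (log2 fold change 2.64), and the scavenger receptor Msr1 from 0.444 ± 0.193 to 2.13 ± 0.370 CPM (2.26). Cd300a, which binds phosphatidylserine and inhibits the cell that carries it, rose by 1.37, and Pear1, related to the engulfment receptor MEGF10, by 0.79. The gene called lower was Cd14 (log2 fold change -0.63), named here after its value was seen, and this call was lost in 7 of the 22 alternative analyses. The integrin genes Itgb3 (-0.11) and Itgb5 (-0.10), whose products receive MFG-E8 together with integrin αv, did not pass, and Itgav rose by 0.34.

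Among 9 other bridges and opsonins, 4 passed as higher and 3 as lower, where 18.1% of all genes tested were called higher and 17.1% lower. The complement genes C1qa, C1qb and C1qc rose by 1.99, 2.19 and 2.16 on the log2 scale, and Apoe, which carries lipids out of macrophages, rose from 34.7 ± 4.06 to 112 ± 18.9 CPM (1.69). The genes that fell, named after their values were seen, were Ptx3 (-1.62), Thbs1 (-0.86) and Edil3 (-0.52). Thbs1 encodes thrombospondin-1, a ligand of CD36, and went from 122 ± 14.6 to 67.3 ± 8.55 CPM. Edil3 encodes a relative of MFG-E8, and its call was lost in 9 of the 22 alternative analyses. So Mfge8 and Cd36 rose while Edil3 and Thbs1 fell. The C1q genes also stand among the macrophage markers, as does Cx3cr1.

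**Figure D5:**
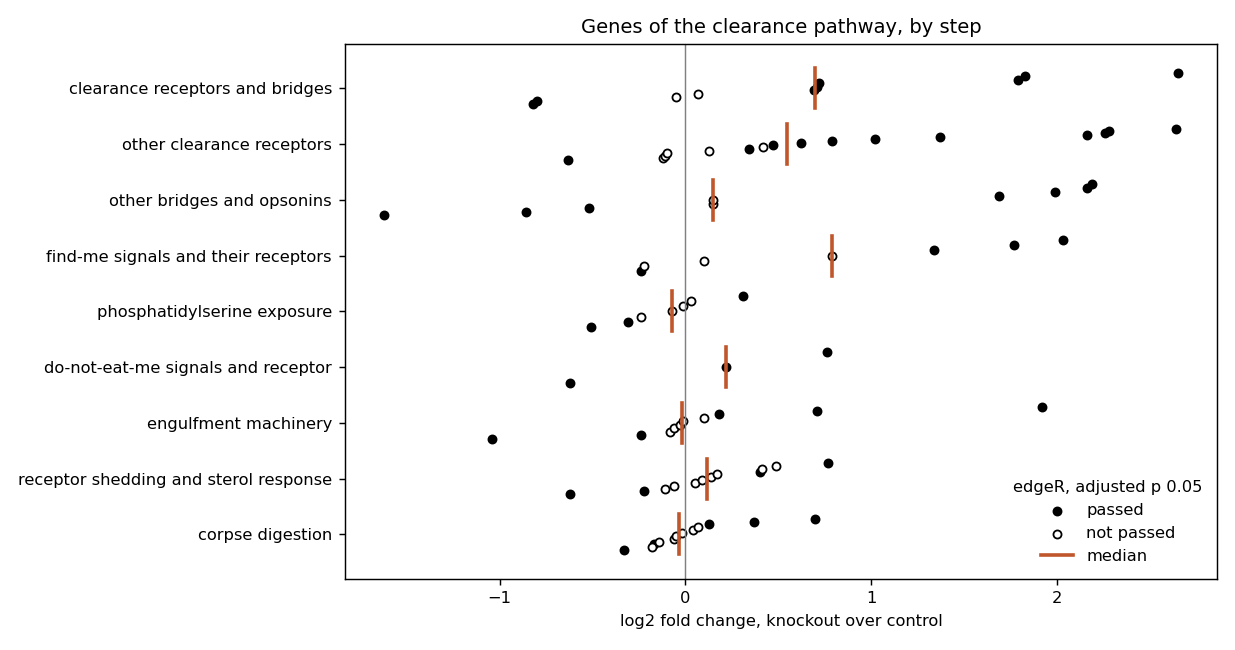
Log2 fold change of knockout over control for the 10 genes and for the tested genes of 8 further lists of the pathway (1 point per gene, filled where the edgeR test was passed, with the list's median as an orange bar). The medians of other clearance receptors (0.55) and of the find-me list (0.79, the value of Gpr132, which did not pass) lie right of 0. Those of engulfment machinery (-0.02), phosphatidylserine exposure (-0.07) and corpse digestion (-0.03) lie near 0.

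Of 7 genes for find-me signals, which draw engulfing cells to a dying cell, and their receptors, 3 passed as higher and 1 as lower (median 0.79). Over all genes tested, 18.1% were called higher and 17.1% lower. The median is the value of Gpr132, which did not pass (edgeR adjusted p = 0.0542). It was scarce, with means of 0.212 CPM in controls and 0.371 CPM in knockouts. The receptors Cx3cr1 (1.34), P2ry6 (2.03) and P2ry2 (1.77), which sense fractalkine and nucleotides, rose, and S1pr1, a receptor of sphingosine-1-phosphate, fell by 0.24 (edgeR adjusted p = 0.0391), a call lost in 10 of the 22 alternative analyses. Cx3cl1, the fractalkine gene, did not pass (-0.22). Of the genes for do-not-eat-me signals, Cd24a fell from 807 ± 62.1 to 527 ± 28.4 CPM (-0.62) and Cd47 was at 0.22 (edgeR adjusted p = 0.0265), a call lost in 11 of the 22 alternative analyses. Sirpa, the receptor of CD47 on engulfing cells, rose by 0.76. Of 9 genes for phosphatidylserine exposure, 7 were tested, with 1 higher and 2 lower (median -0.07). Tmem30a, a subunit of the flippases that keep the lipid inside, rose by 0.31, and the flippase Atp11a and the scramblase-family gene Plscr1 fell by 0.51 and by 0.31. Plscr1 did not pass without the libraries with high Xist.

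Of 10 genes of the engulfment machinery, which acts downstream of the receptors, 3 passed as higher and 2 as lower (median -0.02). The third higher call, Rhog (0.18, edgeR adjusted p = 0.0474), was lost in 14 of the 22 alternative analyses. Vav1, an activator of RAC in blood cells, rose by 1.92 and Elmo1 by 0.71, while Gulp1, an adaptor of engulfment receptors, fell from 33.9 ± 2.72 to 16.4 ± 0.951 CPM (-1.04) and Trio by 0.24. Dock1, Crk and Elmo2 did not pass (log2 fold changes -0.06, -0.01 and -0.03). Of 12 genes for receptor shedding and the sterol response that follows uptake, 2 passed as higher, Abca1 (0.77) and Ppard (0.40), and 2 as lower, Adam10 (-0.22) and Mylip (-0.62). Adam17, the sheddase of MERTK, did not pass (0.05). Of 12 genes for corpse digestion, 3 passed as higher and 2 as lower, and the higher call of Rab7 (0.13, edgeR adjusted p = 0.035) was lost in 12 of the 22 alternative analyses. Lamp1, a lysosomal membrane protein gene, rose by 0.37 and the protease gene Ctsd by 0.70, but other annotated genes share 34.4% of the exon bases of Ctsd on the same strand, so its count is uncertain. Mon1a and Pik3c3 fell by 0.33 and by 0.17, and Pik3c3 did not pass without litter A or when scaled by library size only. Of all genes tested, 35.2% were called, 18.1% as higher and 17.1% as lower. The shares called in the phosphatidylserine exposure, shedding and digestion lists lay near 35.2%, so their counts are no result about these lists.

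The genes most like each member across the 10 libraries were found by Pearson's r of log2 CPM among 15691 genes, as a description. They were Kcnj2 (0.989), Gm28119 (0.989) and Rnf146 (0.985) for Mertk, and Col11a1 (0.985), Pcyox1 (0.984) and Gas2 (0.983) for Tyro3. For Gas6 they were Dapk1 (0.995), Cyth4 (0.995) and Sash3 (0.994), and for Cd36 Wipf3 (0.992), Thyn1 (0.991) and 2410015M20Rik (0.990). Pros1 was most like Cd44 (0.995), Mfge8 most like Pitpnm2 (0.994), Stab1 most like Trmt9b (0.983) and Timd4 most like Il6ra (0.972). For Axl and Lrp1 the closest genes were Smad7 (0.948) and Sh3bp4 (0.909). The libraries share the split into 2 groups, so for the 8 genes whose groups do not overlap r is high for any gene with the same split.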

How the data were processed

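RNA of 10 forelimb bud libraries was measured by sequencing, and groups were taken from the sample titles. The deposited table held estimated counts per Ensembl gene made by the authors. The build mm10 and the tools DESeq2 1.16.1, Salmon 0.8.2 and R 3.4.1 are named in the submitters' processing notes, and for their roles, settings and strand handling nothing is stated there. The other deposited table carries FPKM in its name but holds a signal that the authors made by dividing the rounded counts by 1 factor per library (100.00% of values within 0.01), and it was used only in alternatives. Symbols, lengths and coordinates came from GENCODE M21 (GRCm38, the assembly of mm10), and 47224 of 47729 IDs had a symbol. On the opposite strand, other genes share 1.3% of the exon bases of Gas6 and 1.1% of those of Stab1.

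Rounded counts passed filterByExpr (at least 10 counts in enough libraries and 15 in total) and TMM scaling. The quasi-likelihood test of edgeR 4.0.16 in R 4.3.3 compared knockout with control without covariates, with Benjamini-Hochberg adjustment over 20562 genes and a threshold of 0.05. The SE is the absolute log2 fold change over the square root of F. Log2 CPM used a prior count of 2. A count of 0 allows up to 0.0902 CPM in the shallowest library (3 counts, counting error only). Libraries of 1 group differed beyond counting noise, and none was a duplicate. The labels give the litters, which pair controls with knockouts. Deviations from the group means correlated by -0.0444 to 0.252 within same-numbered pairs. For a control and a knockout of different litters they correlated by -0.219 to 0.102. Alternatives used DESeq2 1.42.0, limma 3.58.1, other scaling or filters, a replicate block, somite stage, and fewer libraries.

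The members and lists were chosen with earlier results of these data known. Named were all members, Cxxc1, the 4 most significant genes that passed in each pathway list (all genes of the list of 3), the 2 markers of each cell type with the highest mean CPM (1 of them is not reported here), and up to 3 genes most like each member with a mean of at least 1 CPM. Any other gene named was chosen after its values were seen.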

Additional observations from a re-analysis of the deposited data

Results flagged for a closer look

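In 20 sets of 5 libraries (10 genes in 2 groups), 3 single libraries stood apart from the rest of their group, by a gap to the nearest library of more than 0.71 of the group's range. Chance alone flags about 1 in 20 sets. Tyro3 was at 53.5 CPM in knockout 3, where the next highest knockout had 48.1 CPM. Stab1 was at 55.7 CPM in control 4, where the next highest control had 44.2 CPM. Lrp1 was at 252 CPM in control 3, where the next highest control had 229 CPM.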

How the results depend on the processing

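All 8 members that passed kept their direction and their call in all 22 alternative analyses, with log2 fold changes of -0.86 to -0.70 for Mertk, -0.87 to -0.69 for Tyro3, 1.57 to 1.86 for Gas6, 0.62 to 0.78 for Pros1, 0.63 to 0.76 for Mfge8, 1.59 to 2.17 for Timd4, 0.47 to 0.78 for Stab1 and 2.51 to 2.90 for Cd36. The replicate block by litter, or by number, changed no member's call, and called 3723 and 3491 genes higher and 3591 and 3359 lower, against 3719 and 3526 without it. Axl and Lrp1 passed in no alternative (smallest adjusted p 0.376 and 0.166), and leaving out 1 library at a time gave Axl values from -0.10 to 0.005, the last without control replicate 3, instead of -0.05. Leaving out 1 library at a time gave 3183 to 3600 genes called higher and 3096 to 3428 lower, and without litter A there were 2002 and 2021, from 6 libraries. When scaled by library size only, 4492 genes were higher and 2734 lower, with a median log2 fold change of all genes of 0.051. Cd14 lost its call in 7 of the 22 alternatives and Edil3 in 9. Depth limits Timd4 most, with 59 counts in all controls and 201 in all knockouts.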
